A study of Mus musculus with 6 samples.

Results

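The genes described here encode 10 parts of the histone-based machinery that keeps retroelements silent: Trim28, Setdb1, Atf7ip, Ehmt1, Ehmt2, Suv39h1, Suv39h2, Morc3, Smchd1 and Hells. They were chosen by name, for their known roles in histone H3 lysine 9 methylation, KAP1 recruitment, MORC and SMCHD1 silencing and heterochromatin remodeling, and are 10 of the 43629 genes in the deposited count table. The choice was made with earlier results of these data known. All 10 passed the filter on low counts and were among the 16829 genes tested. The counts come from poly(A)-selected RNA of epidermal keratinocytes isolated at postnatal day 3 (P3) and grown in low-calcium medium, for 5 days by the labels and for a shorter time by a legend of the study, with 3 libraries from control and 3 from Dnmt1Δ/Δep mice, each library from a different mouse. Every mouse is labelled female, and all lines were kept on a mixed C57BL/6J and 129SV background. Dnmt1Δ/Δep mice carry a K5-Cre transgene and 2 floxed Dnmt1 alleles, whereas the labels call the other mice control or wt and do not say whether they carry floxed Dnmt1 alleles or K5-Cre. The keratin 5 promoter drives Cre in basal cells of the epidermis and hair follicle, and Dnmt1 was not measured here in other cell types of the cultures.

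Methylation of histone H3 at lysine 9 (H3K9) and methylation of DNA are parallel marks of silent chromatin. In the best known route, KRAB zinc finger proteins bind a retroelement and bring in KAP1, the product of Trim28, which recruits the H3K9 methyltransferase SETDB1 with its partner ATF7IP. EHMT1 and EHMT2 (GLP and G9a) place the dimethyl mark as a heterodimer, and SUV39H1 and SUV39H2 place the trimethyl mark at pericentromeric satellites and at some retroelements. MORC3 and SMCHD1 are GHKL ATPases that compact silent chromatin, and HELLS (LSH) is a remodeling ATPase that DNA methylation of repeats depends on. The comparison addresses whether transcripts of this second layer differed in keratinocytes in which the maintenance DNA methyltransferase had been deleted.

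Counts on genes summed to between 53433121 and 115526598 per library, and the factors of TMM, the scaling method of edgeR, lay between 0.980 and 1.02. Levels are given as CPM, counts scaled to the library size. As a check of the labels, Dnmt1 itself stood at 394, 379 and 324 CPM in control, against 49.7, 54.3 and 50.7 CPM in Dnmt1Δ/Δep libraries. In the column names, replicates of the same number share a flow cell and the digit after it, read here as the sequencing lane, so values within a lane are given as the log2 difference of the same-numbered libraries. Of the 5 keratinocyte markers, all were found in every library, with a summed level of 27211 to 30935 CPM in control against 20468 to 21127 CPM in Dnmt1Δ/Δep libraries, and Krt5 and Krt14 passed the test as lower. The other 3 did not pass, with log2 fold changes of −0.26 for Trp63, 0.18 for Itga6 and 0.17 for Itgb4. Markers of other cells were present, and among those tested only both endothelial genes, Cdh5 and Pecam1, passed the test, as higher. Of the 5 leukocyte markers, 1 had enough counts to be tested, Cd74 (log2 fold change 3.30, edgeR adjusted p = 0.143). The 4 melanocyte markers summed to 193 to 502 CPM in control against 618 to 829 CPM in Dnmt1Δ/Δep libraries, the 2 endothelial markers to 1.56 to 3.21 and 10.4 to 14.4 CPM, the 4 fibroblast markers to 10.2 to 24.2 and 10.9 to 52.7 CPM, and the 5 leukocyte markers to 0.0103 to 0.205 and 0.197 to 0.805 CPM. Only Cd207 among them had no count in any control library, and none was at 0 in all Dnmt1Δ/Δep libraries. In such cultures, fewer cells of a type and less RNA per cell cannot be told apart, and the part of other cells in the results that follow was not tested.

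Of the 10 silencing genes, Suv39h2 was upregulated and Suv39h1 was lower in Dnmt1Δ/Δep keratinocytes, and the other 8 did not pass an adjusted p of 0.05. At this threshold 7.71% of all genes tested were higher and 1.66% lower, 9.36% in all. With the additional requirement of a 2-fold change, the study's own rule, only Suv39h2 of the 10 was called, where 6.03% of all genes were called higher and 0.392% lower. The log2 fold changes of the 10 genes had a median of −0.10, against a median over all genes tested of −0.00089. In 7 genes the value was negative and in 3 positive, where 8432 of the 16829 genes tested were negative. The 95% interval of the log2 fold change lay within 2-fold in either direction for 9 of the 10 genes, as it did for 61.4% of all genes tested. The exception was Suv39h2.

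**Figure D1:**
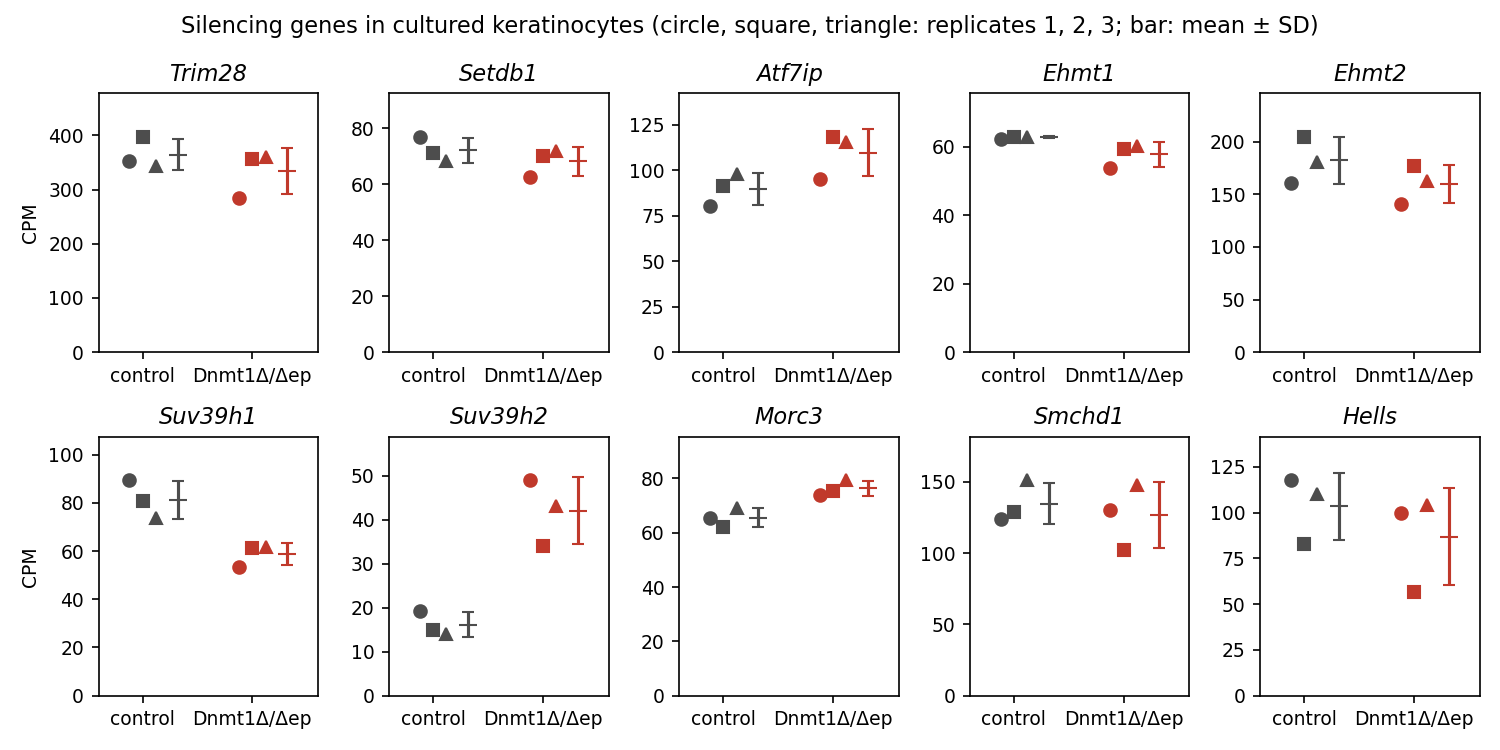
Expression of the 10 silencing genes in CPM (vertical axes, starting at 0) in each control and Dnmt1Δ/Δep library. Points are libraries, with the replicate number shown by the symbol, and the bar beside them is the mean ± SD of 3 libraries. Suv39h2 lies between 14.1 and 19.3 CPM in control and between 33.9 and 49.0 CPM in Dnmt1Δ/Δep libraries, while the ranges of most other genes overlap.

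Trim28 (ENSMUSG00000005566, chromosome 7, 12999114 to 13031035, plus strand, GRCm38) encodes KAP1, the scaffold on which KRAB zinc finger repression is built. It was the most abundant of the 10 genes per length in both groups, with 87.7 RPKM in control and 80.3 RPKM in Dnmt1Δ/Δep keratinocytes, the 97.1th percentile of all genes tested (RPKM are CPM per kilobase of the union of exons). Its expression was 352, 398 and 344 CPM in the control libraries, against 285, 356 and 360 CPM in those of Dnmt1Δ/Δep mice. The groups overlapped, with Dnmt1Δ/Δep replicate 1 below all other libraries. The log2 fold change was −0.13 (SE, standard error, 0.12, edgeR adjusted p = 0.624), and the 95% interval ran from −25.1% to 11.9%.

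Setdb1 (ENSMUSG00000015697, chromosome 3, 95323525 to 95357202, minus strand), the methyltransferase that KAP1 recruits, had 76.99, 71.1 and 68.2 CPM in control against 62.4, 69.9 and 72.0 CPM in Dnmt1Δ/Δep libraries. The ranges overlapped, and the log2 fold change of −0.08 (SE 0.10, edgeR adjusted p = 0.713) was smaller than its standard error. Its 95% interval ran from 19.7% lower to 11.2% higher. Exons of Cers2 and Gm37500 share 4.73% of its exon sequence. Atf7ip (ENSMUSG00000030213, chromosome 6, 136506167 to 136610862, plus strand), whose product stabilizes SETDB1 in the nucleus, had 80.4, 91.3 and 97.6 CPM in control against 94.97, 118 and 116 CPM in Dnmt1Δ/Δep libraries. Dnmt1Δ/Δep replicate 1 fell within the control range and the other 2 lay above it. In the fit, the log2 fold change was 0.29 (SE 0.12, unadjusted p = 0.0504 and edgeR adjusted p = 0.213), with a 95% interval from −0.040% to 49.4%. Within the lanes, the log2 differences were 0.24, 0.37 and 0.24. With the replicate number as a block, the log2 fold change of Atf7ip was 0.29 (edgeR adjusted p = 0.0585).

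Ehmt1 (ENSMUSG00000036893, chromosome 2, 24789928 to 24919614, minus strand) had 62.4, 62.9 and 63.0 CPM in control, the tightest values of the 10 genes, and 53.7, 59.4 and 60.2 CPM in Dnmt1Δ/Δep libraries. Every Dnmt1Δ/Δep library lay below every control library, a pattern that 11.7% of all genes tested had in this direction. The difference did not pass the test, with a log2 fold change of −0.12 (SE 0.090, edgeR adjusted p = 0.502). Its partner Ehmt2 (ENSMUSG00000013787, chromosome 17, 34898469 to 34914052, plus strand) had 161, 205 and 181 CPM in control against 141, 177 and 163 CPM in Dnmt1Δ/Δep libraries, and the groups overlapped. Its log2 fold change was −0.19 (SE 0.13, edgeR adjusted p = 0.455), with a 95% interval from 28.7% lower to 8.28% higher. For both genes the value was negative in each of the 3 lanes. With the replicate number as a block, the log2 fold changes of Ehmt1 and Ehmt2 were −0.12 and −0.19 (edgeR adjusted p = 0.350 and 0.137). Ehmt2 made up 81.0% ± 1.80 (SD, n = 3) of the summed RPKM of the pair in control, against 80.3% ± 1.02 (SD, n = 3) in Dnmt1Δ/Δep libraries, so that the balance of the heterodimer's transcripts differed by less than the spread between libraries.

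Suv39h2 (ENSMUSG00000026646, chromosome 2, 3455815 to 3475031, minus strand) is the paralog of Suv39h1 that is best known from the germ line, where it is the more abundant in testis. It had 19.3, 15.001 and 14.1 CPM in control against 49.0, 33.9 and 43.2 CPM in Dnmt1Δ/Δep libraries, from 758 to 1826 and from 2920 to 5096 counts. Each Dnmt1Δ/Δep library was above each control library, as was the case for 18.2% of all genes tested. The mean rose from 16.1 ± 2.78 to 42.0 ± 7.59 CPM (SD, n = 3), 2.60-fold in the fit with a 95% interval from 1.94-fold to 3.49-fold. On the log2 scale, the fold change was 1.38 (SE 0.18, edgeR adjusted p = 0.00465, by the quasi-likelihood method and Benjamini-Hochberg correction), and 1.34, 1.18 and 1.61 within the lanes. The gene passed the adjusted p in each of 12 other fits, which left out a library or changed the scaling, filter, block or tool, with log2 fold changes from 1.26 to 1.53 and adjusted p from 4.9e-09 to 0.0295.

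Suv39h1 (ENSMUSG00000039231, chromosome X, 8061171 to 8074760, minus strand), the more widely used member of the pair, had 89.4, 80.5 and 73.5 CPM in control against 53.5, 61.3 and 61.7 CPM in Dnmt1Δ/Δep libraries. The groups did not overlap, a pattern that 11.7% of all genes tested had in this direction. The mean was 81.2 ± 7.96 CPM in control against 58.8 ± 4.64 CPM in mutant keratinocytes (SD, n = 3), and the fit gave a log2 fold change of −0.46 (SE 0.11, edgeR adjusted p = 0.0447), 27.5% lower with a 95% interval from 39.6% to 13.0% lower. Within the lanes, the log2 differences were −0.74, −0.39 and −0.25. This call was close to the threshold. It was lost with the replicate number as a block (log2 fold change −0.46, edgeR adjusted p = 0.0538), where 3.58% of all genes were lower and 10% higher, among genes with a mean of at least 1 RPKM (edgeR adjusted p = 0.0590), and in every fit that left out 1 library, except that without control replicate 3. Without control replicate 1 the adjusted p was 0.0558, without control replicate 2 it was 0.143, and without Dnmt1Δ/Δep replicates 1, 2 and 3 it was 0.159, 0.0828 and 0.108 (edgeR).

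The 2 paralogs thus moved in opposite directions, and their ratio was shifted in every library. Suv39h1 had 3.88, 4.49 and 4.36 times the RPKM of Suv39h2 in the control libraries, and 0.913, 1.51 and 1.195 times in the Dnmt1Δ/Δep libraries. Suv39h2 made up 20.5%, 18.2% and 18.7% of the summed RPKM of the pair in control and 52.3%, 39.8% and 45.6% in Dnmt1Δ/Δep libraries, with no overlap. With the length of the longest coding transcript in place of the exon union, a choice made after seeing the data, these shares were 12.5% ± 0.865 and 33.9% ± 5.64 (SD, n = 3). The sum of both genes was 19.1 ± 2.12 RPKM in control against 20.7 ± 1.19 RPKM in mutant libraries over the exon union (SD, n = 3), a difference smaller than the SD of the control libraries. With the longest coding transcript, Suv39h1 had means of 26.0 RPKM in control and 18.9 RPKM in mutant libraries. Suv39h2 then had 3.73 and 9.72 RPKM, so the sum depends on the length used. The change of Suv39h2 exceeded that of Suv39h1 by 2.09, 1.57 and 1.87 on the log2 scale in lanes of replicates 1, 2 and 3. With 3 libraries against 3, an exact two-sided permutation test of such a share cannot go below p = 0.1.

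**Figure D2:**
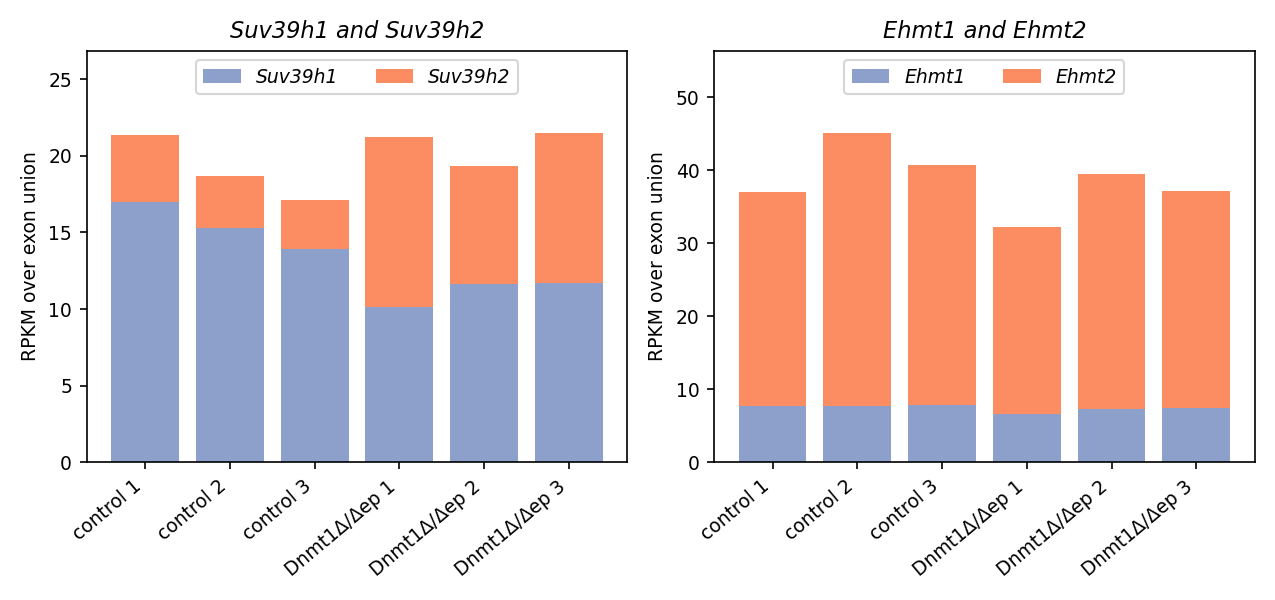
Stacked RPKM over the union of exons (vertical axes, starting at 0) of the paralog pairs Suv39h1 and Suv39h2 (left) and Ehmt1 and Ehmt2 (right) in each of the 6 libraries. The Suv39h2 part grows from 18.2% to 20.5% of the pair in control to 39.8% to 52.3% in Dnmt1Δ/Δep libraries at a similar total, while the Ehmt2 part is between 79.2% and 82.8% in all libraries.

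The promoter windows of the 2 genes, from 250 bases before to 50 after the start in RefSeq on GRCm38.p6, are described by their CpG dinucleotides, the sites that DNMT1 methylates. The Suv39h2 window held 33 CpG, at the 92.3th percentile of the 32851 windows in the same table, whose median was 7. Suv39h1 has 2 starts in the table, with 15 CpG at the upstream start (67.0th percentile) and 37 at the other (95.1th percentile), so that Suv39h2 lies between both. The parts of the Suv39h2 window (chr2:3475032-3475236) and of the upstream Suv39h1 window (chrX:8074761-8075010) that lie before every annotated exon, and for that reason could be printed without transcribed sequence, are written 5′ to 3′ on the minus strand, with each CpG in capitals. They hold 22 CpG in 205 bases and 11 CpG in 250 bases.
Suv39h2: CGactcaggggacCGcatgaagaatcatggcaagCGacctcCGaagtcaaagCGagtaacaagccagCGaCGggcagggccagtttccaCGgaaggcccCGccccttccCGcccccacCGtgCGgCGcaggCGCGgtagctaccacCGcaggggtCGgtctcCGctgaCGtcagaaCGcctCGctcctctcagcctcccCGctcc
Suv39h1: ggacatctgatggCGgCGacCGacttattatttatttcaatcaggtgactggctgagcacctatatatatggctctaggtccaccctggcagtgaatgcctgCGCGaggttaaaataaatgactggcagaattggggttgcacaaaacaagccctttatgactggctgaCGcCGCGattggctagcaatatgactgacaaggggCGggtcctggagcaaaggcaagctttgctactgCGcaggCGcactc
Methylation of these sites was not measured in these libraries. Over the 12 windows of the 10 genes, the number of CpG ranged from 15 to 40. An E2F site, searched on both strands as TTTGGCGC, TTTCGCGC, TTTCCCGC or TTTGCCGC, occurred in 2 of the 12 windows, that of Hells and the downstream one of Suv39h1, against 2.27% of all windows. The E-box CACGTG was found in both windows of Ehmt2 and in none of the others, against 7.15% of all windows. Such matches describe the sequence and are not evidence of a bound factor.

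Reads counted on Suv39h2 could in part belong to genes that overlap it, since 9.98% of its exon sequence is shared with Dclre1c and Gm13184 on the opposite strand and the strand setting of the counting is not given in the sources used here. Dclre1c, which encodes the nuclease Artemis, had 12.5 CPM in control against 11.8 CPM in mutant keratinocytes, a log2 fold change of −0.08 (edgeR adjusted p = 0.808). Gm13184 had 0, 1 and 0 counts in control and 9, 2 and 10 counts in Dnmt1Δ/Δep libraries and was not tested. Among 7 tested genes within 200 kb of Suv39h2, 1 passed the adjusted p as higher and 0 as lower, where 7.71% of all genes were higher. It was Olah, named after its values were seen, with 6, 9 and 2 counts in control and 47, 74 and 94 counts in Dnmt1Δ/Δep libraries (log2 fold change 3.57, edgeR adjusted p = 0.00228). For Suv39h1, 14.6% of the exon sequence is shared with Gm14820, which had a mean of 0.258 CPM in control. Of 17 tested genes within 200 kb of Suv39h1, 2 passed as higher and 0 as lower, although Suv39h1 itself was lower. They were Porcn (log2 fold change 1.46, edgeR adjusted p = 0.00207) and Was, with 1, 2 and 0 counts in control and 9, 14 and 14 counts in Dnmt1Δ/Δep libraries (edgeR adjusted p = 0.0228), both named after their values were seen. Melanocyte and endothelial markers were higher in every Dnmt1Δ/Δep library, as were Suv39h2 and 18.2% of all genes tested. The part of these markers in the rise of Suv39h2 was not tested. The summed fibroblast markers were higher in the Dnmt1Δ/Δep library in the lanes of replicates 1 and 3, where Suv39h2 differed by 1.34 and 1.61 on the log2 scale, and lower in that of replicate 2 (24.2 CPM in control, 10.9 CPM in Dnmt1Δ/Δep), where it differed by 1.18, the smallest of the 3 differences. Their part was not tested either.

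Morc3 (ENSMUSG00000039456, chromosome 16, 93832121 to 93876073, plus strand), required for silencing of endogenous retroviruses in embryonic stem cells, had 65.3, 62.1 and 69.2 CPM in control against 74.1, 75.5 and 79.4 CPM in Dnmt1Δ/Δep libraries. All Dnmt1Δ/Δep libraries were above all control libraries, as was the case for 18.2% of all genes tested. Within the lanes the differences were 0.18, 0.28 and 0.20 on the log2 scale. The log2 fold change of 0.22 (SE 0.090) did not pass the adjustment (unadjusted p = 0.0433, edgeR adjusted p = 0.195), and 15.8% of all genes tested were higher and 7.79% lower at an unadjusted p of 0.05.

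Smchd1 (ENSMUSG00000024054, chromosome 17, 71344489 to 71475343, minus strand), best known for its role on the inactive X chromosome and at imprinted clusters, had 124, 129 and 151 CPM in control against 130, 102 and 148 CPM in Dnmt1Δ/Δep libraries. The groups overlapped and the lanes disagreed in sign, with log2 differences of 0.071, −0.34 and −0.032. Its log2 fold change was −0.09 (SE 0.15, edgeR adjusted p = 0.815). Hells (ENSMUSG00000025001, chromosome 19, 38930915 to 38971051, plus strand) was the most variable of the 10 genes, with 118, 82.9 and 110 CPM in control against 99.7, 56.4 and 104 CPM in Dnmt1Δ/Δep libraries. Replicate 2 was the lowest library of each group. The log2 fold change was −0.25 (SE 0.25, edgeR adjusted p = 0.620), with the widest interval of the 10 genes on the log2 scale, from −0.83 to 0.32. The differences within the lanes were all negative, at −0.24, −0.56 and −0.076, and with the replicate block the log2 fold change was −0.29 (edgeR adjusted p = 0.146).

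**Figure D3:**
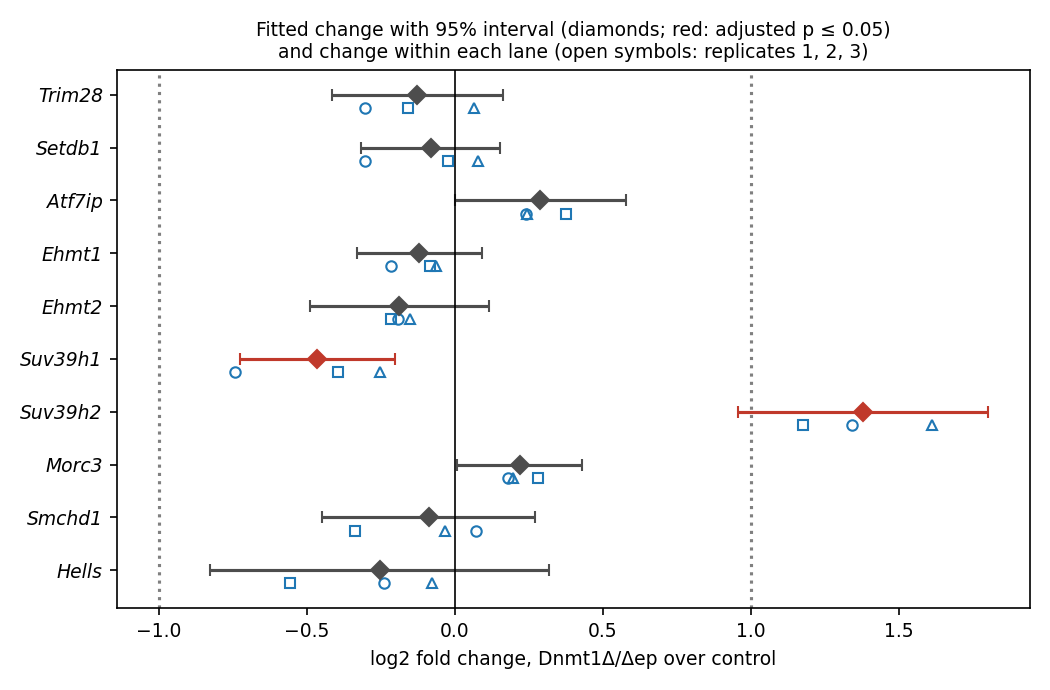
Log2 fold change of the 10 genes in Dnmt1Δ/Δep over control keratinocytes. Diamonds with bars are the values fitted by edgeR with 95% intervals, in red where the adjusted p was at most 0.05, open symbols are the differences of same-numbered libraries within a lane, and dotted lines mark 2-fold. Suv39h2 lies at 1.38 and Suv39h1 at −0.46, and the intervals of 9 genes stay between the dotted lines.

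Per length, the order of levels in control keratinocytes ran from Trim28 (87.7 RPKM) through Ehmt2 (33.2), Suv39h1 (15.4), Hells (14.4), Morc3 (12.1), Setdb1 (10.5), Ehmt1 (7.73), Smchd1 (6.74) and Atf7ip (4.33) to Suv39h2 (3.66). The library ranges of Suv39h1 and Hells, of Hells and Morc3, and of Atf7ip and Suv39h2 overlapped, and the other neighbors in this order were apart. In Dnmt1Δ/Δep keratinocytes, Suv39h2 stood at 9.53 RPKM, between Setdb1 (9.94) with which it overlapped and Ehmt1 (7.12) from which it was apart. The order depends on the length used, because the exon unions of Atf7ip (20726 bases) and Smchd1 (19982 bases) are much longer than their longest coding transcripts (8059 and 7052 bases). With the latter length, Smchd1 moved from place 8 to place 4 in control, and Suv39h2 kept place 10. In Dnmt1Δ/Δep libraries Suv39h2 moved from place 7 to place 9 with that length, and its range of 7.84 to 11.3 RPKM then overlapped that of Ehmt1, 9.02 to 10.1 RPKM.

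For each gene, the most similar profile among 9287 other genes with a mean of at least 10 CPM was sought, by the root mean square difference of log2 CPM around the mean of the 6 libraries. Suv39h1 was closest to Mcm10, a replication factor, at 0.0311. For Suv39h2 the nearest gene, Sparc, differed by 0.127, the largest such distance of the 10. This measure is not scaled and tends to grow with the size of a gene's own change, which was largest for Suv39h2. The nearest profiles were Hcfc1 for Trim28 (0.0318), Aco1 for Setdb1 (0.0189), Kansl3 for Ehmt1 (0.0168), Sympk for Ehmt2 (0.0174), Smtn for Atf7ip (0.0515), B4galt1 for Morc3 (0.0279), Pds5b for Smchd1 (0.0283) and Mbnl1 for Hells (0.0852). With only 6 libraries and this many genes, close matches are found for most profiles, and the names describe the libraries only.

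Hells is known to be more abundant in dividing cells, and 3 proliferation genes were lower in Dnmt1Δ/Δep keratinocytes. Of 16 such genes, 15 had negative log2 fold changes, as did 8432 of all 16829 genes tested. The median of the 16 was −0.40, and Top2a, Aurkb and Mcm6 passed the adjusted p as lower, against 1.66% of all genes tested. Top2a, the topoisomerase of mitotic chromosomes, had 787 ± 24.7 CPM in control against 594 ± 37.1 CPM in Dnmt1Δ/Δep libraries (SD, n = 3), with a fitted log2 fold change of −0.41 (edgeR adjusted p = 0.0402). The log2 fold changes of the replication genes Mcm2, Mcm5 and Pcna were −0.40, −0.42 and −0.40 (edgeR adjusted p = 0.101, 0.103 and 0.0892), close to the −0.46 of Suv39h1. Mki67 had a log2 fold change of −0.21 (edgeR adjusted p = 0.841) and ranged from 378 to 922 CPM among the control libraries. With the replicate number as a block, 7 of the 16 passed as lower, against 3.58% of all genes. Among genes with a mean of at least 1 RPKM, and without control replicate 2 or any 1 of Dnmt1Δ/Δep replicates 1, 2 and 3, 0 of the 16 passed as lower (edgeR). Over all genes, 158 were lower at 1 RPKM and 35 to 79 without 1 of these libraries, against 279 in the main fit. At an unadjusted p in all 6 libraries 13 of the 16 were lower, against 7.79% of all genes. With DESeq2 5 were lower, against 3.27% of all genes. The part of cell division in the levels of Suv39h1 and Hells was not tested.

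Of 66 partner genes in 9 lists, 62 were tested, and 1 was higher and 3 were lower at the adjusted p, with 0 past 2-fold (4 higher and 14 lower at an unadjusted p). Over all genes these shares were 7.71% higher and 1.66% lower, and at an unadjusted p 15.8% and 7.79%. Without 1 library, 0 to 3 partner genes were higher and 0 to 2 lower. Their median log2 fold change was −0.13. With the replicate number as a block, 1 was higher and 5 were lower, where 10% of all genes were higher and 3.58% lower. With DESeq2 the counts were also 1 and 5, where 9.24% of all genes were higher and 3.27% lower. The gene that was higher was Zfp809, a KRAB zinc finger that recruits KAP1 to the primer binding site of murine leukemia viruses and related elements. It had 18.97 ± 1.89 CPM in control against 29.3 ± 2.80 CPM in mutant keratinocytes (SD, n = 3), with a fitted log2 fold change of 0.63 (SE 0.13, edgeR adjusted p = 0.0236), and 0.69, 0.60 and 0.60 within the lanes. It passed in 8 of 12 other fits, not without control replicate 2 (adjusted p = 0.110) or without Dnmt1Δ/Δep replicates 1, 2 or 3 (0.0853, 0.0613 and 0.0895, edgeR). Of the other zinc fingers in that list, Zfp932 and Gm15446 had log2 fold changes of −0.05 each, and Zfp708 and Zfp819, with at most 5 counts in a library, were not tested.

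The 3 lower genes handle histones behind the replication fork or bind them in several complexes. The H3-H4 chaperone Asf1b had 91.2 ± 5.95 CPM in control against 62.3 ± 9.16 CPM in mutant keratinocytes (SD, n = 3), and its log2 fold change was −0.55 (SE 0.13, edgeR adjusted p = 0.0388). Chaf1b, a subunit of chromatin assembly factor 1, had a log2 fold change of −0.42 (SE 0.10, edgeR adjusted p = 0.0459). Rbbp4, a histone-binding subunit of that factor and of Polycomb repressive complex 2, had 320 ± 0.175 and 250 ± 9.81 CPM (SD, n = 3), with a log2 fold change of −0.36 (SE 0.084, edgeR adjusted p = 0.0407). These calls also depended on the fit, with 7, 5 and 5 of 12 other fits passing for Asf1b, Chaf1b and Rbbp4. None of the 3 passed without control replicate 2 or without Dnmt1Δ/Δep replicate 1 or 3, where the adjusted p lay between 0.126 and 0.180 (edgeR). In addition, Asf1b did not pass without control replicate 3 (0.0583), Chaf1b without control replicate 1 (0.0547) or Dnmt1Δ/Δep replicate 2 (0.0789), and Rbbp4 without control replicate 3 (0.0932) or Dnmt1Δ/Δep replicate 2 (0.0795, edgeR adjusted p throughout). Asf1a, of the same list as Asf1b, did not pass in the main fit (−0.40, edgeR adjusted p = 0.0552). It passed as lower in 3 of 12 other fits, among them the replicate block (−0.40, edgeR adjusted p = 0.0370) and DESeq2 (−0.43, adjusted p = 0.0136).

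In the remaining 6 lists 0 genes passed in the main edgeR fit, and the gene with the smallest p in each was as follows. Among the 3 HP1 genes, whose products read H3K9 methylation, it was Cbx5, with a log2 fold change of −0.30 (edgeR adjusted p = 0.195). In the list of the HUSH complex and other MORC genes it was Morc1, a germ-line gene with 7, 17 and 10 counts in control and 16, 31 and 48 counts in Dnmt1Δ/Δep libraries (log2 fold change 1.28, edgeR adjusted p = 0.136), and Morc2b with 1 count in all was not tested. Among cofactors of KAP1 and SETDB1 it was Chd4, the ATPase of the NuRD complex, with a log2 fold change of −0.30 (edgeR adjusted p = 0.0801), which passed with DESeq2. The EHMT partner Cdyl had −0.14, the methyltransferase family gene Mecom 1.30 at 0.141 CPM in control, and the demethylase Kdm3b −0.30 (edgeR adjusted p = 0.472, 0.292 and 0.140). For Mecom the log2 fold change was 0.84 without control replicate 1 and 2.15 without control replicate 3. At an unadjusted p, 1 HP1 gene was lower, 2 HUSH and MORC genes were higher, 1 cofactor was higher and 2 lower, 2 demethylases were lower, and the EHMT partners and other methyltransferases had 0. Over all genes, 15.8% were higher and 7.79% lower at this threshold. With DESeq2, Chd4 was the only gene of these 6 lists that passed, and with the replicate block it was Kdm3b. Without control replicate 1, Morc2a (0.38, edgeR adjusted p = 0.0336) and Morc4 (0.37, edgeR adjusted p = 0.0429) passed as higher. Without control replicate 3, Chd3 passed as lower (−0.49, edgeR adjusted p = 0.0433). One demethylase, Kdm4d, had at most 18 counts in a library and was not tested.

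**Figure D4:**
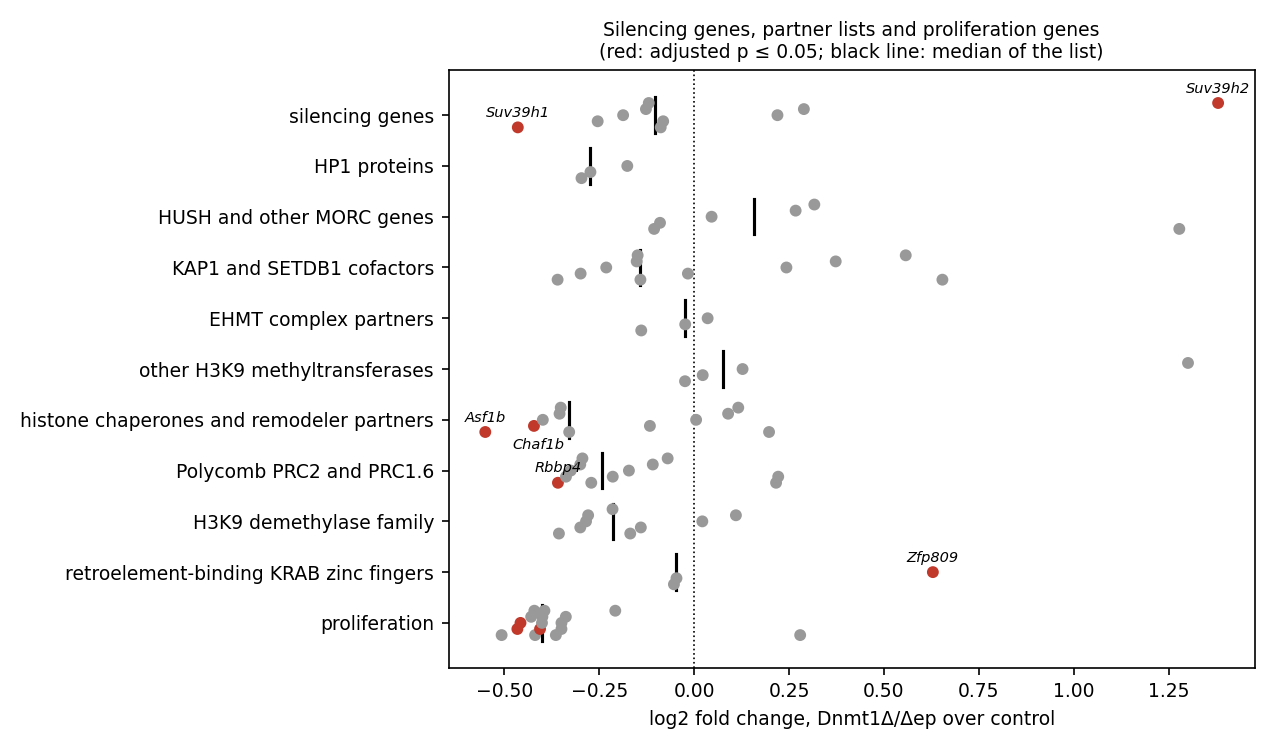
Log2 fold change in Dnmt1Δ/Δep over control keratinocytes (horizontal axis) for each tested gene of the silencing genes, the 9 partner lists and the proliferation genes. Each point is a gene, red where the adjusted p was at most 0.05, and the black line is the median of a list, which is −0.10 for the silencing genes and −0.40 for proliferation.

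As readouts of what these proteins act on, 17 repeat names that are known targets of H3K9 methylation or commonly measured beside them were taken from the repeat counts, all of which were matched and tested among 938 names. Of the 17 names, 8 were higher and 0 lower at the adjusted p (edgeR, with 1 lower at an unadjusted p and 0 lower with DESeq2), where 9.91% of all names tested were higher and 0.746% lower. The names were chosen with earlier results of these data known, and several are parts of the same element family. These counts therefore describe the list and do not test it. With a 2-fold change as well, 7 of the 17 were higher, against 8.21% of all names. With the replicate number as a block, 10 were higher and 2 lower, where 16.8% of all names were higher and 10.3% lower. Levels are given as gene-scaled CPM, which are repeat reads divided by the library's reads on genes multiplied by its TMM factor for genes. Log2 fold changes are scaled by TMM among the repeat names, and their median over all names tested was −0.05. If the gene counts set the library sizes instead, this median was 0.33, and 9 of the 17 were then higher and 0 lower, against 12% of all names higher and 0% lower.

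IAPEz-int, the internal part of intracisternal A particles and a classic target of KAP1 and SETDB1, had 1241, 1075 and 1985 gene-scaled CPM in control and 74049, 68616 and 71140 in Dnmt1Δ/Δep libraries. Its log2 fold change was 5.29 (SE 0.35, edgeR adjusted p = 3.2e-05). The IAP long terminal repeats IAPLTR1_Mm and IAPLTR2_Mm had log2 fold changes of 4.66 and 3.97, and MMERVK10C-int, another target of this route, had 2.49. MuLV-int and MMVL30-int, elements of the kind ZFP809 binds, had 2.36 and 1.82 (edgeR adjusted p = 0.0150 and 0.00166). MuLV-int did not pass without Dnmt1Δ/Δep replicate 2 or 3 (edgeR adjusted p = 0.0549 and 0.0619). These elements were higher in every Dnmt1Δ/Δep library than in every control library, as were 18.3% of all names, with 13.4% lower in this way. Trim28 and Setdb1, whose products act on them, had log2 fold changes of −0.13 and −0.08, which did not pass the test.

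Of the remaining names, MERVL-int and L1Md_F2 passed as higher. MERVL-int, which depends on EHMT2 and other factors in embryonic stem cells, had 31.7, 26.1 and 29.7 gene-scaled CPM in control and 76.4, 55.1 and 70.4 in Dnmt1Δ/Δep libraries (log2 fold change 0.84, edgeR adjusted p = 0.0029), and its long terminal repeat MT2_Mm had 0.29 (edgeR adjusted p = 0.227). L1Md_F2 had a log2 fold change of 1.12 (edgeR adjusted p = 0.00307), whereas L1Md_A and L1Md_T, younger LINE subfamilies, had −0.40 and 0.11 (edgeR adjusted p = 0.203 and 0.887). L1Md_A passed as lower with the replicate block (log2 fold change −0.41, edgeR adjusted p = 0.0378), but with library sizes from the gene counts its log2 fold change was −0.057 (edgeR adjusted p = 0.909). It also passed as lower without Dnmt1Δ/Δep replicate 2 (−0.57, edgeR adjusted p = 0.0448) and with upper-quartile factors (−0.65, edgeR adjusted p = 0.0226). GSAT_MM, the major satellite at which SUV39H enzymes act, had 1.89, 2.73 and 7.63 gene-scaled CPM in control and 5.77, 5.10 and 9.21 in Dnmt1Δ/Δep libraries. The groups overlapped, and the log2 fold change was 0.35 (SE 0.54, edgeR adjusted p = 0.724). The libraries were poly(A)-selected, and satellite reads were few in all of them. ETnERV-int, ETnERV2-int and RLTR4_MM-int had log2 fold changes of 0.56, −0.40 and 0.73 (edgeR adjusted p = 0.120, 0.244 and 0.278). With the replicate block, ETnERV-int (0.57, adjusted p = 0.0253) and RLTR4_MM-int (0.82, adjusted p = 0.0159) passed as higher and ETnERV2-int as lower (−0.41, edgeR adjusted p = 0.0218). With library sizes from the gene counts, the log2 fold changes of ETnERV-int, ETnERV2-int and RLTR4_MM-int were 0.92, −0.045 and 1.15 (edgeR adjusted p = 0.0210, 0.925 and 0.0556). ETnERV-int also passed without control replicate 2 (0.73, edgeR adjusted p = 0.0459). With upper-quartile factors, ETnERV2-int passed as lower (−0.65, edgeR adjusted p = 0.0325). The SINE names B1_Mm and B2_Mm2 had log2 fold changes of −0.17 and 0.15 (edgeR adjusted p = 0.434 and 0.613).

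**Figure D5:**
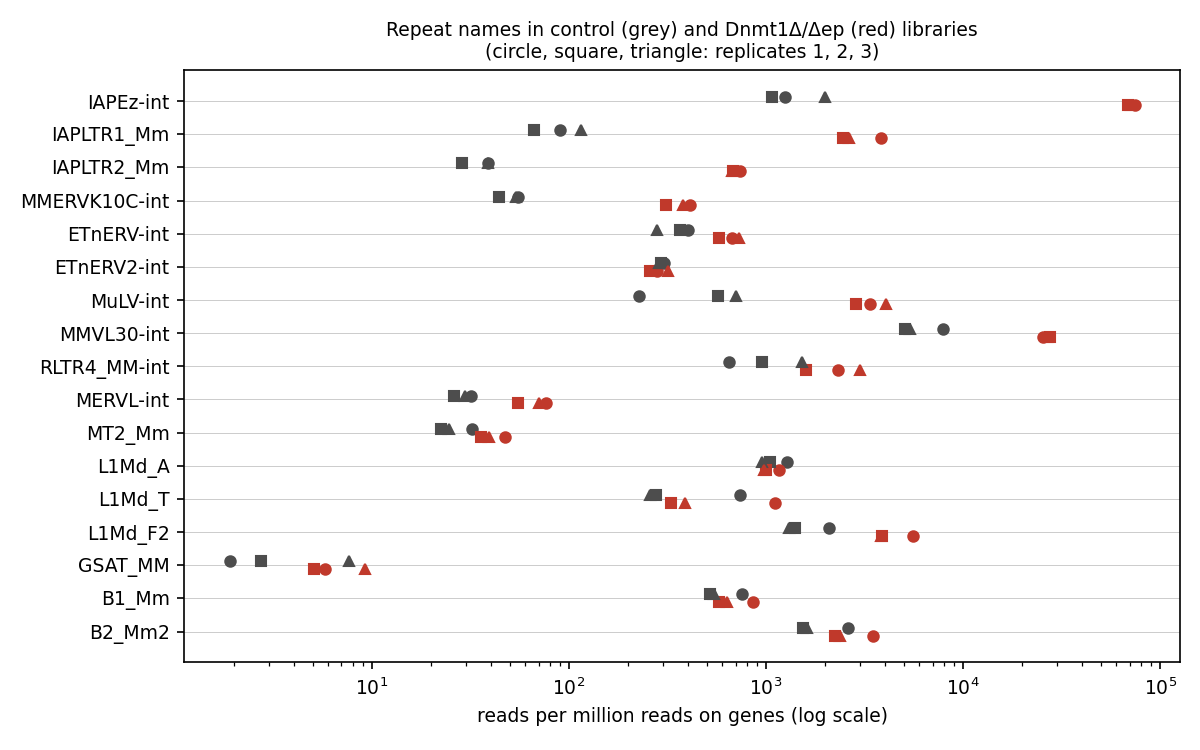
Gene-scaled CPM (horizontal log axis) of 17 repeat names in each control (grey) and Dnmt1Δ/Δep (red) library, with the replicate number shown by the symbol. IAPEz-int lies at 1075 to 1985 in control and at 68616 to 74049 in Dnmt1Δ/Δep libraries, and the groups overlap for GSAT_MM and L1Md_A.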

How the data were processed

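Keratinocyte cultures of 3 control mice were compared with those of 3 Dnmt1Δ/Δep mice by RNA sequencing. For genes, reads were trimmed, filtered against ribosomal RNA and aligned with STAR by the authors, who deposited raw counts from HTSeq. For repeats, the authors used bowtie and RepEnrich, and the deposited values are also raw counts. Per the labels the build is GRCm38, whereas the text of the methods names a human build for genes and MGSCv37 for repeats. The deposited tables of the authors' own DESeq2 comparisons (fold changes, p-values and 12 columns of normalized counts) were not used. Entries that name no gene took 8.73% to 12.9% of each library and were excluded. Symbols, positions and exon lengths came from GENCODE M21 on GRCm38 and matched 97.3% of 43629 identifiers.

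Counts were tested with edgeR 4.0.16 (quasi-likelihood test, TMM, filterByExpr with minimum counts of 10 and 15, no block) in R 4.3.3, with Benjamini-Hochberg adjustment over all features of a table. Features passed at an adjusted p of 0.05, and the 2-fold rule also asked for a log2 fold change of 1 or more either way. Standard errors were obtained by dividing the absolute log2 fold change by the root of the F statistic. Alternatives were DESeq2 1.42.0, other scaling factors, no filter, a replicate block, genes with a mean of at least 1 RPKM, and leaving out each library. The fits were tested on simulated data. Same-numbered replicates shared a lane, as read from the column names, and their deviations from the group means correlated across genes (0.46, 0.36 and 0.30) and repeats (0.66, 0.53 and 0.49), so the numbers pair the libraries. The main fit had no block, so its p-values do not use this pairing. Named genes are the 10 silencing genes, partner genes that passed or, per list without one, had the smallest p, 5 proliferation genes, the 17 repeat names, and the nearest profile of each silencing gene. Olah, Porcn, Was, Morc2a, Morc4, Chd3, Asf1a, Aurkb, Mcm6 and single markers of cell types were named after their values were seen. The genes and lists were chosen with earlier results of these data known. A count of 3 is 0.0254 to 0.0558 CPM, and reads carry no molecular identifiers. Figures were drawn with matplotlib 3.10.9 in Python 3.11.15.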

Additional observations from a re-analysis of the deposited data

How the results depend on the processing

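Suv39h2 passed in every alternative, so that 1 silencing gene was higher in each. The number lower was 1 or, with the replicate block or at a mean of at least 1 RPKM, 0, and 0 to 1 without 1 library. Partner genes that were lower numbered 3, but 1 without a filter, 5 with the replicate block, 5 with DESeq2 and 0 at 1 RPKM, and 0 to 2 without 1 library, while 0 to 3 were then higher. Of proliferation genes, for which the alternatives were added after seeing the data, 3 were lower, 7 with the block, 5 with DESeq2, 0 at 1 RPKM and 0 to 3 without 1 library, and 0 to 1 higher. Over all genes, 1297 were higher and 279 lower. With the block 603 were lower (1686 higher), with DESeq2 658, and at 1 RPKM 158, with 629 higher. Without 1 library, 604 to 1684 were higher and 35 to 650 lower. Of the 17 repeat names, 3 were lower with upper-quartile factors, 2 with the block and 0 to 1 without 1 library, and 7 to 9 were then higher. Among the silencing genes and repeat names, the direction changed for Smchd1 without control replicate 3 (5.4e-07, down to −0.21 without other libraries), L1Md_T with upper-quartile factors (−0.11), when control replicate 3 (−0.09) or Dnmt1Δ/Δep replicate 1 (−0.36) was left out (up to 0.55), GSAT_MM without control replicate 1 (−0.094, up to 1.12), B1_Mm with gene library sizes (0.19, but −0.41 and adjusted p = 0.034 from edgeR with upper-quartile factors) and B2_Mm2 with upper-quartile factors (−0.10). Of 62 partner genes, 21 changed sign in at least 1 alternative, Zfp932 and Gm15446 among them. Only Morc4 of these passed in any, as higher without control replicate 1 (0.37, adjusted p = 0.0429 from edgeR), with −0.10 without control replicate 3. The causes were not tested. The block changed no call among the silencing genes other than that of Suv39h1. Each silencing gene had at least 758 counts per library.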
